A study of Mus musculus with 6 samples.

Results

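The genes examined here encode 40 factors of mitochondrial gene expression. Most copy or transcribe the mitochondrial genome, mature and modify mitochondrial tRNAs, or serve the mitochondrial ribosome, and 4 (Nrf1, Gabpa, Ppargc1a and Ppargc1b) are regulators that act on nuclear genes. They were chosen by function, from a list of symbols, with earlier results of these data known. All 40 were matched in the deposited table of 55401 genes. Of the 40, 17 belong to mtDNA upkeep and transcription, 10 are translation factors, and 13 process or modify tRNAs. Poly(A) RNA was sequenced from NIH-3T3, an established mouse line of embryonic fibroblasts kept in medium with serum (WT, 3 libraries), and from mutant cells derived from it (MU, 3 libraries). The genotype label of MU reads only "Mutation", and the treatment label, "Cultural", is shared by both groups. Neither the gene nor the allele is named there, nor is it stated whether MU arose from 1 clone. The study deals with errors of mitochondrial translation, and its published form concerns Tars2, the mitochondrial threonyl-tRNA synthetase. The mRNA of Tars2 was at 56.8, 53.7 and 62.6 TPM in WT against 49.1, 42.1 and 44.7 TPM in MU, lower in each MU library but not called (limma adjusted p = 0.057). A change of sequence is not read by such levels. Since each group is 1 line, the mutation and any further divergence of the lines cannot be told apart.

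Mitochondrial DNA is transcribed as long precursors by a dedicated RNA polymerase with its own activator and melting factor. The tRNAs are cut out of these precursors, receive a CCA tail and base modifications, and are charged by mitochondrial synthetases. Mitochondrial ribosomes then translate the few mRNAs that the organelle keeps, with bacterial-type initiation, elongation, release and recycling factors. The factors that act there are encoded by nuclear genes, made in the cytosol and imported, so that their mRNAs are read here with the rest of the nuclear transcriptome.

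Levels are given in TPM, a unit scaled by transcript length and to a fixed library total, so levels of different genes can be compared. Sequencing depth is unknown because TPM does not keep it. Across genes, pairs of WT libraries had Pearson correlations of log2(TPM + 1) of 0.949 to 0.966 and pairs of MU libraries of 0.971 to 0.976. Mixed pairs had 0.937 to 0.945 (genes are not independent replicates). All 10 fibroblast markers reached 1 TPM, with summed levels of 8614.7 to 9902.6 TPM in WT and 11219.8 to 11732.3 TPM in MU. Of 29 markers of epithelium, endothelium, leukocytes, muscle and adipocytes, 5 reached 1 TPM in any library and 5 were listed at 0 in all. The summed muscle markers were at 0.942 to 1.01 TPM in WT and 3.87 to 4.26 TPM in MU. Of these, Acta1 was higher in MU (0.658 to 3 TPM, limma adjusted p = 0.0048), and Des, not tested, was at 0.116 and 0.834 TPM. The muscle markers Myod1 and Myog were among those listed at 0, and so were Cldn4 of epithelium and 2 adipocyte markers. The summed leukocyte markers were at 19.5 to 20.8 TPM in WT and 10.3 to 14.2 TPM in MU, with Cd14 lower (17.3 to 7.49 TPM) and Cd68 at 2.56 and 4.47 TPM. Endothelial markers summed to 2.07 to 3.35 TPM in WT and 0.786 to 1.26 TPM in MU, with Cdh5 lower (limma adjusted p = 0.0186). Epithelial markers summed to 0.79 to 1.54 and 1.6 to 2.31 TPM, and adipocyte markers to 0.316 to 0.47 and 0.0556 to 0.218 TPM. The part of other cell types in the results below was not tested.

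The WT libraries differed among themselves more than the MU libraries did, and this touches many of the 40 genes. Among the 39 genes that passed the filter on low values (at least 1 TPM in at least 3 of the 6 libraries), WT replicate 2 was the lowest WT library for 23 and WT replicate 3 the highest for 19, which held for 45.6% and 36% of all tested genes. The median coefficient of variation of these genes was 17.7% in WT and 8.80% in MU (16.6% and 9.56% over all 14209 tested genes). The WT range enclosed the MU range for 12 of the 39 genes, and the reverse held for 2. Across the 39 genes, the difference between WT replicates 3 and 2 had a Spearman correlation of -0.438 with the GC content of the transcript, and across 14189 tested genes the value was -0.434 (points share the same 2 libraries). The widest differences were in Tfb2m, by 1.12 on the log2 scale, Trmt5, by 1.07, and, in the other direction, Hsd17b10, by -0.87. The heat map of library deviations shows these genes as rows in which WT replicates 2 and 3 have opposite colours.

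**Figure D1:**
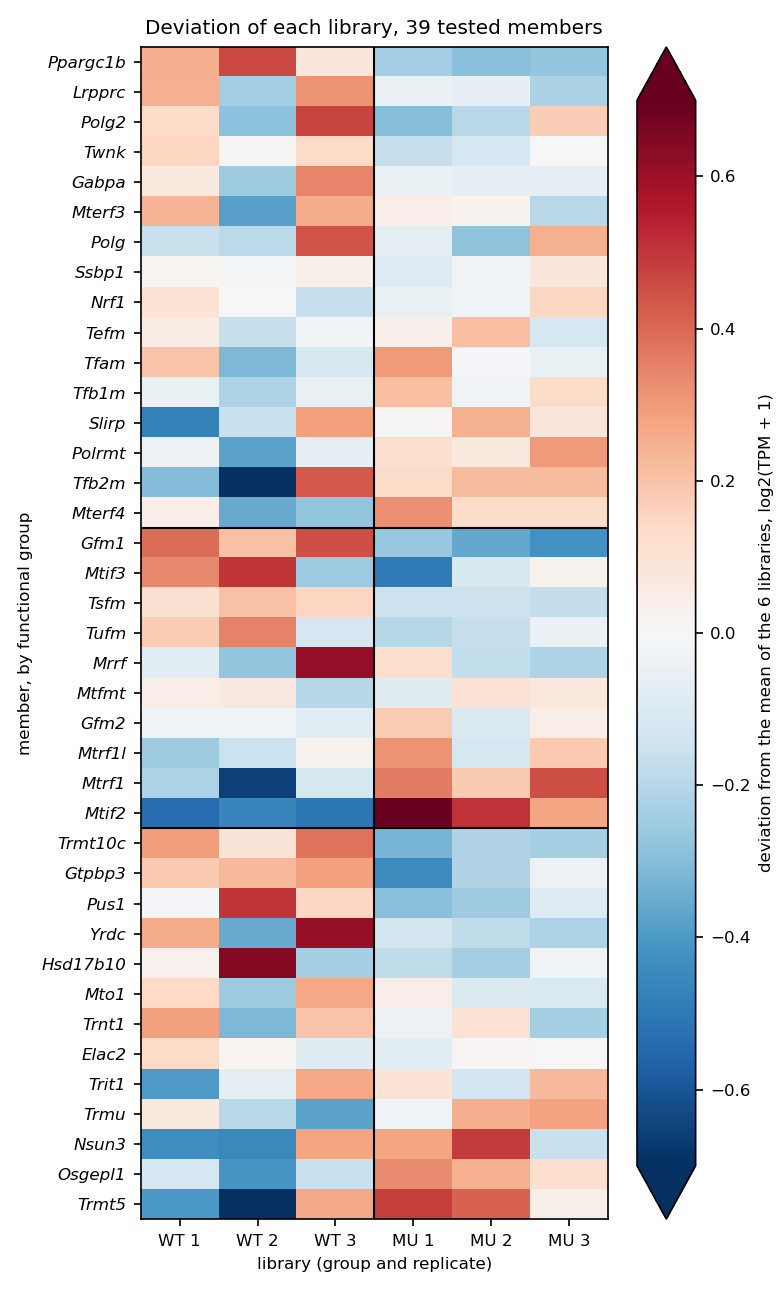
Deviation of each library from the mean of the 6 libraries, in log2(TPM + 1), for the 39 tested genes, with libraries in columns and genes in rows grouped by function and ordered by difference within a group. Mtif2 and Gfm1 have the same colour in all 3 libraries of a group, while Tfb2m, Trmt5, Yrdc, Mrrf and Hsd17b10 are among those that vary widely among the WT libraries.

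Of the 40 genes, 5 were called between the lines, and of these only Mtif2 and Gfm1 passed under every alternative processing. Mtif2, an initiation factor, rose, and the elongation factors Gfm1 and Tsfm, the tRNA methyltransferase and RNase P subunit Trmt10c and the tRNA modification enzyme Gtpbp3 fell. Of the 39 tested genes, 1 was thus called higher in MU and 4 lower at an adjusted p under 0.05 (limma, Benjamini-Hochberg over all tested genes), where 7.12% of all tested genes were called higher and 11.6% lower, 18.8% in all. Of all calls, 37.9% were higher in MU, and 48.3% to 48.8% were under the 3 rescalings tried (without mtDNA-encoded genes, median-of-ratios and quantile). The members' share of calls was 12.8%, which is near that background and is not read as a feature of these genes. Their median difference was -0.04 on the log2(TPM + 1) scale, next to -0.05 over all tested genes. Differences smaller than 0.3 in either direction made up 22 of 39, or 56.4%, against 54.1% of all tested genes. WT and MU values were separate in 13 of the 39 (6 higher and 7 lower in MU, 33.3%), and in 39.2% of all tested genes. An unadjusted p under 0.05 was found for 11 of the 39 (5 higher, 6 lower) and for 33.4% of all tested genes. Without WT replicate 2 the calls were 1 higher and 5 lower, and without WT replicate 3 they were 3 higher and 3 lower. Leaving out WT replicate 1 or any 1 MU library left 1 call in each direction, Mtif2 and Gfm1.

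**Figure D2:**
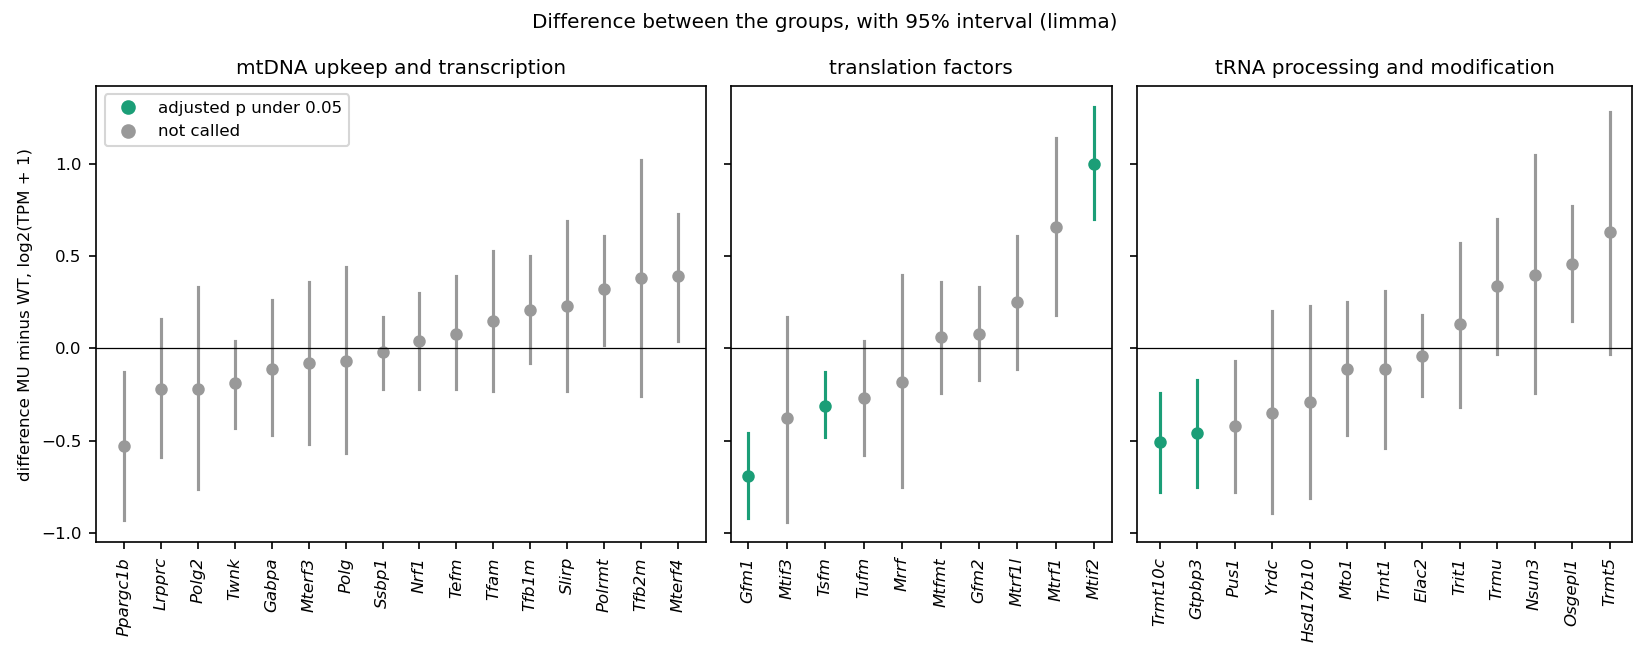
Difference between MU and WT on the log2(TPM + 1) scale with its 95% interval from limma, for the 39 tested genes in 3 functional groups. The 5 called genes are in green, and Mtif2 at 1.0 and Gfm1 at -0.69 lie farthest from 0 among them.

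In the authors' deposited table, which gives a fold change and an adjusted p from the submitters' own test, 9 of the 40 genes had an adjusted p under 0.05, 5 higher and 4 lower in MU. Of all genes with an adjusted p there, 21.1% were under this threshold, 9.42% higher and 11.6% lower. In the authors' deposited table Mtif2, Mtrf1, Osgepl1, Trmt5 and Polrmt were the higher genes, and Gfm1, Trmt10c, Ppargc1b and Gtpbp3 the lower ones. Tsfm had an adjusted p of 0.163 in the authors' deposited table.

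The promoters of the 40 genes were searched for letters bound by known activators of mitochondrial genes. Gabpa, itself among the 40, encodes the DNA-binding subunit of an ETS-family factor, and Nrf1 encodes a second activator of mitochondrial genes. Windows from 250 bases before to 50 bases after the gene start (RefSeq, GRCm38.p6) were given for 36 of the 40 genes. Each window was searched on both strands for CCGGAAGT, a core bound by ETS factors, GCGCA followed by any base and GCGC, bound by NRF1, and AAGATGGC, bound by YY1. The ETS letters were found in 11 of the 36 genes (30.6%), in 4.31% of all 27025 genes with a window and in 9.67% of the 9600 tested genes with a window. The YY1 letters were found in 5 of the 36 (13.9%, against 3.19% and 5.57%) and the NRF1 letters in 2 (5.56%, against 5.19% and 12.1%), which were Gfm2 and Polrmt. The stretches around the ETS letters are shown because these letters were found in more of the 36 genes than the other motifs, though most lacked them. They are written along the gene with 15 bases on each side and the matching letters in capitals (ACTTCCGG where the match is on the other strand).
Gfm1 (chr3:67430099-67430136, + strand): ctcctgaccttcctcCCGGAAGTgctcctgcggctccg
Nsun3 (chr16:62786739-62786776, - strand): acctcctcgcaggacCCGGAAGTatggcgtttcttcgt
Osgepl1 (chr1:53313615-53313652, + strand): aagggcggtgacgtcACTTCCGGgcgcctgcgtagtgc
Polg (chr7:79466289-79466326, - strand): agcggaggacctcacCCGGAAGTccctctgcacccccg
Tefm (chr11:80142140-80142177, - strand): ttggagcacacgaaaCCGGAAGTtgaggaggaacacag
Tfam (chr10:71238069-71238106, - strand): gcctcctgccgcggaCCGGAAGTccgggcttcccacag
Trmt10c (chr16:56037777-56037814, - strand): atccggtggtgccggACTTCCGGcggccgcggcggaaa
Trmu (chr15:85879314-85879351, + strand): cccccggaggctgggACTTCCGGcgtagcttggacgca
Tufm (chr7:126487338-126487375, + strand): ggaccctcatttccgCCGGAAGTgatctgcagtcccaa
Twnk (chr19:45006432-45006469, + strand): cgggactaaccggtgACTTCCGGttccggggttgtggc
Yrdc (chr4:124850710-124850747, + strand): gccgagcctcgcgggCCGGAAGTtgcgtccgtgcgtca
Counted from the RefSeq start used for the window, the match began 1 base before the start of Gfm1 and 13 bases before that of Trmt10c. It began 7 bases after that of Osgepl1. The GENCODE starts of Gfm1 and Trmt10c, given with the genes below, lie farther upstream, so that both matches fall inside those genes. The differences of the genes with the ETS letters ran from -0.69 (Gfm1) to 0.46 (Osgepl1) with a median of -0.07. A match of letters is a description and not a binding site.

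The windows of the 2 genes that passed under every processing tried are shown in full. Gfm1 is at chr3:67429865-67430164 (+ strand) with its ETS letters in capitals. Mtif2 is at chr11:29526147-29526446 (+ strand), and its window held no exact match to the 3 motifs. It does hold ccggaagc on each strand, which differs from the ETS letters only in the last base.
Gfm1: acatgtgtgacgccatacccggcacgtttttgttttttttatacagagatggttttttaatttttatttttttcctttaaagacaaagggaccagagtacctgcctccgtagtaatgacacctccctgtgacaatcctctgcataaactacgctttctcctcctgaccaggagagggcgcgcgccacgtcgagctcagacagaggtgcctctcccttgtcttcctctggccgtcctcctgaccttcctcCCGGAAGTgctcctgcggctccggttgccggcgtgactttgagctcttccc
Mtif2: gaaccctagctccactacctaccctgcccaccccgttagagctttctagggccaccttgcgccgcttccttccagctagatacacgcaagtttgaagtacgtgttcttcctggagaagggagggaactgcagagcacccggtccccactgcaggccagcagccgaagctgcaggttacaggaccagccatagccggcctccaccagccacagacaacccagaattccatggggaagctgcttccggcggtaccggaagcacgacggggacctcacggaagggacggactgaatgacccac
Gfm1 fell and Mtif2 rose in MU, as given with their values below, and the part of these letters was not tested.

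Of the 16 tested genes of mtDNA upkeep and transcription, 0 were called in either direction (limma), next to 18.8% of all tested genes. An unadjusted p under 0.05 was found for 3, 2 higher and 1 lower, and for 33.4% of all tested genes. Their median difference was 0.01, and 12 of the 16 lay within 0.3 of no difference (75%, against 54.1% of all tested genes). Tfam, which packages mtDNA and activates its promoters, had 71.9 ± 13.3 TPM in WT against 79.6 ± 11.1 TPM in MU (mean ± SD, n = 3, as for all such values here). Polrmt, the mitochondrial RNA polymerase, was at 41.0, 32.4 and 40.4 TPM in the WT libraries and at 45.7, 44.3 and 52.2 TPM in the MU libraries. Every MU library was above every WT library for Polrmt, by a difference of 0.32 (SE 0.12) that was not called (limma adjusted p = 0.124). With quantile normalization it was called, at 0.41 (adjusted p = 0.0481). Tfb2m, which melts the promoter for the polymerase, was at 25.8, 19.4 and 43.5 TPM in WT and at 35.2, 37.6 and 37.5 TPM in MU. The MU libraries of Tfb2m lay close together inside the wide WT range. Without WT replicate 3 it was called higher (0.69, limma adjusted p = 0.0248), and without WT replicate 2 its difference was 0.13 (0.705). Its paralog Tfb1m, which methylates the small ribosomal RNA, was at 7.22 ± 0.536 and 8.51 ± 0.773 TPM (adjusted p = 0.279), and the elongation factor Tefm at 12.7 ± 1.01 and 13.5 ± 1.75 TPM (0.694).

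Among factors that act after transcription, Mterf4, which brings an rRNA methyltransferase to the large ribosomal subunit, was at 9.67, 7.08 and 7.53 TPM in WT and at 11.9, 10.3 and 10.3 TPM in MU. Its groups did not overlap, with a difference of 0.39 (SE 0.14, limma adjusted p = 0.113) that was called after correction for GC content and length (0.45, 0.0435). Of its exon bases, 35.2% are shared with Sned1 on the other strand, and whether reads were counted by strand is not stated. Lrpprc, which stabilises mitochondrial mRNAs, was at 93.0, 65.9 and 97.3 TPM in WT and at 75.4, 75 and 66.8 TPM in MU (difference -0.22, adjusted p = 0.391). WT replicate 2 was the lowest of the 6 libraries for Lrpprc, and without it the gene was called lower (-0.39, limma adjusted p = 0.0239). Without WT replicate 3 its difference was -0.11 (0.664). Slirp, the partner of Lrpprc, was at 40.6 ± 11.1 and 46.7 ± 4.15 TPM (adjusted p = 0.463), and 93.9% of its exon bases are shared with Snw1 on the other strand. Mterf3, a regulator of mitochondrial transcription and ribosome assembly, was at 51.6 ± 12.1 and 47.9 ± 4.37 TPM (0.806).

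No gene of mtDNA replication was called (limma). Ssbp1, which coats single-stranded mtDNA, had 72.1 ± 1.2 TPM in WT against 70.9 ± 4.35 TPM in MU, a difference of -0.02 with a 95% interval of -0.22 to 0.17. The helicase Twnk was at 17.4 ± 1.03 and 15.1 ± 0.943 TPM, without overlap of the groups (difference -0.19, limma adjusted p = 0.227). The polymerase Polg was at 40.5 ± 10.7 and 38.3 ± 7.28 TPM, and its accessory subunit Polg2 at 7.53 ± 2.20 and 6.25 ± 1.29 TPM. Their intervals, -0.57 to 0.44 and -0.76 to 0.33, were wide.

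Of the regulators of mitochondrial gene number and activity, the transcription factors Nrf1 and Gabpa were at 26.2 ± 2.42 and 26.9 ± 2.14 TPM, and at 31.4 ± 6.57 and 28.6 ± 0.171 TPM, in WT and MU in turn (limma adjusted p = 0.827 and 0.675). Ppargc1b, a coactivator of mitochondrial genes, was low. It was at 2.96, 3.59 and 2.52 TPM in WT and at 1.82, 1.72 and 1.76 TPM in MU, without overlap. Its difference of -0.53 (SE 0.17) was not called (limma adjusted p = 0.0725), and was called in limma without an intensity trend (0.0349). The gene lies on chromosome 18, where the median difference of protein-coding genes was -0.28. Ppargc1a, the better known coactivator of mitochondrial biogenesis, did not pass the filter. It was at 0.287, 0.343 and 0.161 TPM in WT and at 0.0153, 0.171 and 0.0273 TPM in MU, levels at which it was not tested.

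Among the 13 genes that process or modify tRNAs, Trmt10c and Gtpbp3 fell and 0 rose past the threshold (15.4% called, next to 18.8% of all tested genes). The median difference of the 13 was -0.11, and 4 had an unadjusted p under 0.05 (1 higher, 3 lower), which 33.4% of all tested genes had. Trmt10c (ENSMUSG00000044763.8, chr16:56032609-56037819, GRCm38, - strand) encodes a methyltransferase that is also a subunit of mitochondrial RNase P, the enzyme that cuts the leader from tRNA precursors. It was at 17, 14.6 and 18.1 TPM in WT and at 10.7, 11.7 and 11.5 TPM in MU. All MU libraries were below all WT libraries, by -0.51 (SE 0.11, limma adjusted p = 0.0256), which takes the mean to 0.683 of its WT level. The call held when WT replicate 2 was left out (adjusted p = 0.0119) and not when any other library was (0.0557 to 0.1). It was also lost after rescaling without mtDNA-encoded genes (0.0515) and after position centring (0.0672). In all, Trmt10c passed under 9 of the 18 alternative processings. Hsd17b10, its partner in RNase P and an enzyme of isoleucine breakdown, was at 69.1, 106 and 57.4 TPM in WT and at 59.6, 57.5 and 66.5 TPM in MU. The WT replicate 2 value of Hsd17b10 stood above the other 5 libraries, and the difference of -0.29 was not called (adjusted p = 0.404). It was -0.04 without WT replicate 2 and -0.48 without WT replicate 3, not called in either (0.814 and 0.134). Elac2, which trims the other end of the precursor, was at 31.4 ± 2.47 and 30.4 ± 1.03 TPM (-0.04, 95% interval -0.26 to 0.18). Trnt1, which adds the CCA tail, was at 59.7 ± 12.7 and 54.5 ± 6.31 TPM (adjusted p = 0.707).

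Of the enzymes of the wobble position, 1 fell and 3 were not called. Gtpbp3 (ENSMUSG00000007610.15, chr8:71488103-71499583, + strand) and Mto1 form the complex that places a taurine-derived group on the wobble uridine. Gtpbp3 was at 28.5, 29.4 and 30.7 TPM in WT and at 18.1, 21.5 and 24.3 TPM in MU. The groups did not overlap, with a difference of -0.46 (SE 0.12, limma adjusted p = 0.0422). Chromosome 8 had a median difference of -0.32, with 80.4% of its protein-coding genes lower in MU. After centring on its neighbours the difference of Gtpbp3 was -0.35 (adjusted p = 0.0992). Its call was also lost without any 1 of the 6 libraries (0.0514 to 0.123) and under each rescaling (0.0677 to 0.0701). In all, Gtpbp3 passed under 4 of the 18 alternative processings. Mto1 was at 22.3, 16.8 and 24.5 TPM in WT and at 20.8, 18.7 and 18.6 TPM in MU, with overlap (-0.11, adjusted p = 0.667). Trmu, which thiolates the same uridine, was at 11.9 ± 2.01 and 15.3 ± 1.89 TPM (0.34, SE 0.15, adjusted p = 0.179). Nsun3, which starts the modification of the wobble cytidine of the methionine tRNA, was at 2.57 ± 1.09 and 3.67 ± 1.02 TPM (0.40, SE 0.27, adjusted p = 0.35).

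Several enzymes modify the base beside the anticodon. Osgepl1 and Yrdc make the threonylcarbamoyl group of tRNAs that read codons starting with A, among them the threonine tRNA, Yrdc by forming the activated precursor and Osgepl1 by transferring it inside mitochondria. Osgepl1 was at 7.90, 6.29 and 7.69 TPM in WT and at 11.2, 10.5 and 9.48 TPM in MU. All MU libraries were above all WT libraries, by 0.46 (SE 0.13), just outside the threshold (limma adjusted p = 0.0527). It was called with a minimum of 5 TPM (0.0479), with mtDNA-encoded genes taken out of the total (0.0488), with median-of-ratios scaling (0.0282), after quantile normalization (0.0412) and after correction for GC content and length (0.00841). Its neighbours on chromosome 1 were higher by 0.28 than tested genes as a whole, and after position centring its difference was 0.18 (0.415). Yrdc, the most abundant of the 40 genes, was at 134, 87.3 and 171 TPM in WT and at 102, 98.4 and 96.1 TPM in MU. The MU libraries of Yrdc lay close together while the WT libraries spread from the lowest to the highest of all 6. The difference was -0.35 (adjusted p = 0.341), was called without WT replicate 2 at -0.61 (0.019), and was -0.13 (0.664) without WT replicate 3. Of its exon bases, 24.6% are shared with a gene on the other strand. Trmt5, a methyltransferase acting beside the anticodon, was at 24.8, 18.6 and 40.1 TPM in WT and at 46.8, 44.4 and 34.1 TPM in MU, with WT replicate 3 inside the MU range. Its difference of 0.63 (SE 0.27) was not called (adjusted p = 0.165), was called without WT replicate 3 at 0.92 (0.0258), and was 0.38 (0.296) without WT replicate 2. Trit1, which adds an isopentenyl group there, was at 23.9 ± 5.72 and 25.8 ± 3.32 TPM (0.687). Pus1, a pseudouridine synthase, was at 28.4, 41.1 and 31.9 TPM in WT and at 23.3, 24.0 and 26.9 TPM in MU. The groups of Pus1 did not overlap (-0.42, SE 0.15, adjusted p = 0.0982), and 23.8% of its exon bases are shared with a noncoding gene on the other strand.

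The largest differences of the set were among the 10 translation factors, of which 1 rose, 2 fell and 7 did not pass (30% called, next to 18.8% of all tested genes). Mtif2 (ENSMUSG00000020459.14, chr11:29526408-29545279, + strand) encodes the initiation factor that brings formylmethionyl-tRNA to the ribosome. It was at 14.5, 15.3 and 14.8 TPM in WT and at 36.1, 30.9 and 26.2 TPM in MU. Every MU library was well above the WT libraries, which lay close together. The mean was 2.09 times that of WT, a difference of 1.0 on the log2(TPM + 1) scale (SE 0.13, 95% interval 0.70 to 1.31, limma adjusted p = 0.0041). It was called under all 18 alternatives, at 0.72 to 1.12. The lowest value came from position centring, since neighbouring genes were higher by 0.28 than tested genes as a whole, although the median of chromosome 11 was -0.04. Mtif3, the other initiation factor, was at 14.3, 16.1 and 9.13 TPM in WT and at 7.59, 10.2 and 11.3 TPM in MU. Its groups overlapped and its difference of -0.38 was not called (adjusted p = 0.302). It ranged from -0.61 to -0.23 without 1 library and was called in none of these fits (0.0728 to 0.602), and 29.4% of its exon bases are shared with Gtf3a on the other strand. Mtfmt, which formylates the initiator tRNA, was at 8.79 ± 0.975 and 9.20 ± 0.691 TPM (0.777).

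Of the elongation factors, Gfm1 and Tsfm fell. Gfm1 (ENSMUSG00000027774.16, chr3:67430096-67476529, + strand) encodes the factor that moves the ribosome along the mRNA after each peptide bond. It was at 115, 101 and 120 TPM in WT and at 72.6, 68.2 and 65.1 TPM in MU. No MU library came near the lowest WT library, and the mean was 0.614 of that of WT. The difference was -0.69 (SE 0.10, 95% interval -0.92 to -0.46, limma adjusted p = 0.00523), and it was called under all 18 alternatives, at -0.76 to -0.46. Chromosome 3 had a median difference of -0.22, and the smallest value, -0.46 (adjusted p = 0.0243), came from position centring. Tsfm (ENSMUSG00000040521.11, chr10:127011572-127030840, - strand) encodes the exchange factor that recharges the elongation factor Tufm with GTP. It was at 59.0, 63.1 and 60.8 TPM in WT and at 49.1, 49.4 and 48.6 TPM in MU. Replicates of Tsfm lay within a few TPM of each other and the groups did not overlap, with a difference of -0.31 (SE 0.07, adjusted p = 0.0316). The call was lost without WT replicate 1 (0.066) or any 1 MU library (0.118 to 0.124), and under each rescaling (0.0719 to 0.134). In all, Tsfm passed under 9 of the 18 alternatives. After position centring the difference was -0.52 (0.0066), since its neighbours on chromosome 10 were higher by 0.21. Tufm, which delivers charged tRNAs to the ribosome, was at 101, 114 and 82.1 TPM in WT and at 77.5, 79.7 and 86.5 TPM in MU. Its groups overlapped through WT replicate 3 (-0.27, SE 0.13, adjusted p = 0.203), and without that library it was called lower (-0.40, 0.0392). Without WT replicate 2 it was at -0.17 (0.332).

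No release or recycling factor was called. Mtrf1, a release factor, was at 1.80, 1.07 and 1.98 TPM in WT and at 3.16, 2.69 and 3.45 TPM in MU. All MU libraries were above all WT libraries, with a difference of 0.66 (SE 0.20) that was not called (limma adjusted p = 0.0658). It was called without an intensity trend (0.0451), with median-of-ratios scaling (0.0478) and after correction for GC content and length (0.0345). Neighbouring genes were higher by 0.42 for Mtrf1, and its difference after position centring was 0.24 (0.486). Mtrf1l, which reads the standard stop codons of most mitochondrial mRNAs, was at 8.36, 9.00 and 10.3 TPM in WT and at 12.8, 9.18 and 11.6 TPM in MU, with overlap (0.25, adjusted p = 0.3). Gfm2, which splits the ribosome after release, was at 15.8, 15.8 and 15.3 TPM in WT and at 18.4, 15 and 16.7 TPM in MU. Its difference was 0.08, with a 95% interval of -0.17 to 0.33. Mrrf, which works with Gfm2 in recycling, was at 15.8 ± 5.72 and 13.4 ± 1.91 TPM (adjusted p = 0.657).

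**Figure D3:**
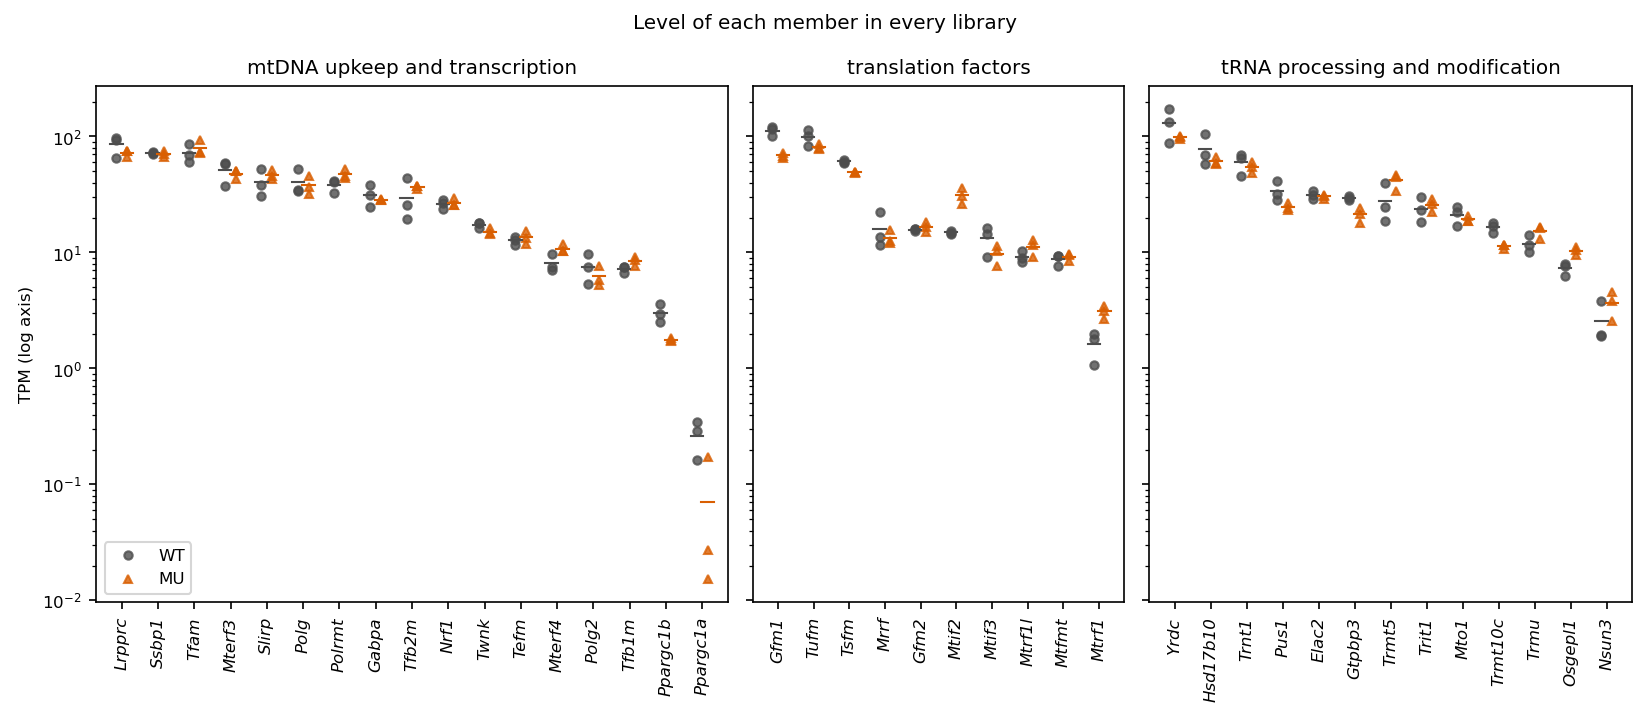
TPM of each of the 40 genes in every library on a log axis, with WT as circles, MU as triangles, and lines at the group means. Yrdc and Gfm1 have the highest WT means (131 and 112 TPM), Ppargc1a lies below 1 TPM in all libraries, and the MU triangles of Mtif2 stand clear above the WT circles.

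The levels spanned a wide range. The tested genes ran from a mean of 2.36 TPM over the 6 libraries (Mtrf1) to 115 TPM (Yrdc), with a median of 25.4 TPM. The order of the most abundant genes, Yrdc, Gfm1, Tufm and Lrpprc, was not fixed across the lines. In WT the values of Yrdc (87.3 to 171 TPM), Gfm1 (101 to 120 TPM) and Tufm (82.1 to 114 TPM) overlapped. In MU Gfm1, at 65.1 to 72.6 TPM, lay below Yrdc and Tufm in every library.

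Ratios of partner genes within a library are not changed by a single scaling factor for that library, although quantile normalization and the GC and length correction can change them. The 11 pairs were chosen by function, with earlier results of these data known. Of these, 4 had ratios that did not overlap between the groups, where 39.2% of single tested genes did not overlap. No share over gene pairs at large was computed, so this count is not read as a feature of these pairs. The ratios are given as a description, with no test. Gfm1 stood to Gfm2, elongation against recycling, at 7.28, 6.39 and 7.80 in WT and at 3.95, 4.55 and 3.90 in MU. Every MU ratio was below every WT ratio. Mtif2 stood to Mtif3 at 1.02, 0.95 and 1.62 in WT and at 4.75, 3.02 and 2.32 in MU. The initiation factors were thus near parity in 2 of the WT libraries. Mtif2 exceeded Mtif3 in WT replicate 3 (1.62) and, by larger ratios, in every MU library. Osgepl1 stood to Yrdc at 0.0592, 0.0720 and 0.0450 in WT and at 0.11, 0.106 and 0.0986 in MU. Mtrf1 stood to Mtrf1l at 0.216, 0.119 and 0.192 in WT and at 0.247, 0.293 and 0.296 in MU. Both of these ratios were higher in all MU libraries. The ratio of Tufm to Tsfm was 1.62 ± 0.240 in WT and 1.66 ± 0.107 in MU, and that of Polg to Polg2 was 5.46 ± 0.864 and 6.16 ± 0.752. Mto1 to Gtpbp3 stood at 0.717 ± 0.127 and 0.929 ± 0.198, and Trmt10c to Hsd17b10 at 0.233 ± 0.0894 and 0.185 ± 0.0163. Those 4 ratios overlapped between the groups. Without WT replicate 2, 7 of the 11 pairs did not overlap.

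**Figure D4:**
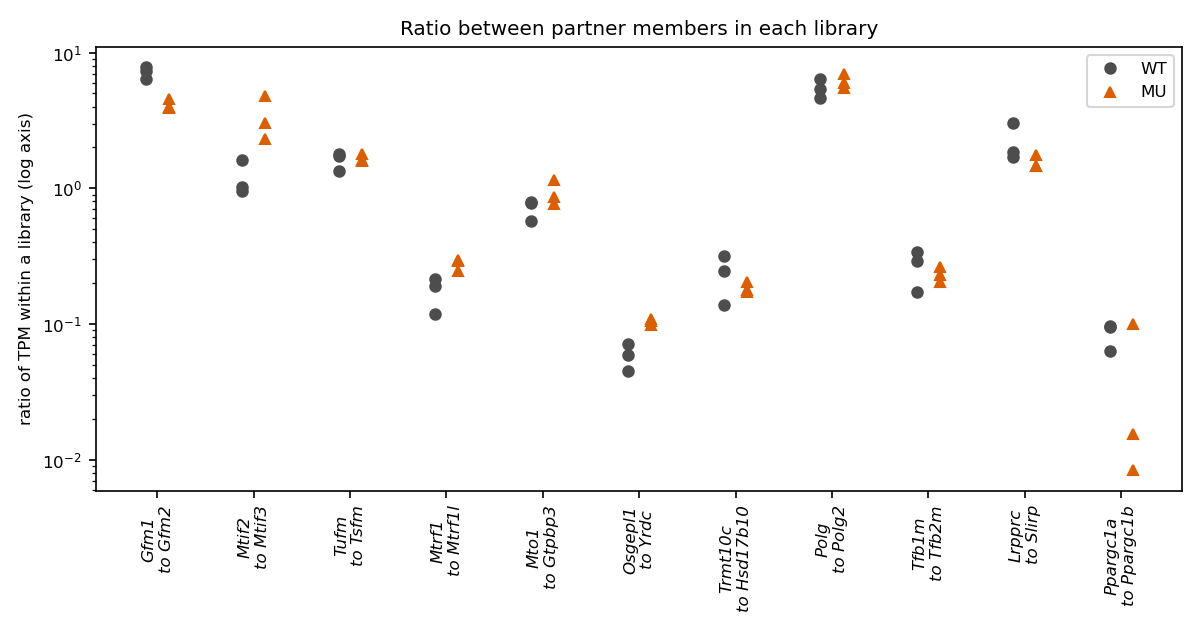
Ratio of the TPM of partner genes within each library on a log axis, for 11 pairs, with WT as circles and MU as triangles. Groups are separate for Gfm1 to Gfm2, Mtif2 to Mtif3, Mtrf1 to Mtrf1l and Osgepl1 to Yrdc.

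Further genes of mitochondrial gene expression were listed by function, with earlier results of these data known, and 83 of 85 were matched and tested. Of these, 3 rose and 6 fell (10.8% called, where 18.8% of all tested genes were), with a median difference of -0.03. Of 17 genes of mtDNA upkeep and nucleotide supply, 2 were higher and 4 lower at an unadjusted p under 0.05 (limma). That held for 33.4% of all tested genes. Past the adjusted threshold, 1 of the 17 fell and 0 rose. This was Slc25a33, a carrier of pyrimidine nucleotides, from 20 ± 4.12 to 12.6 ± 0.669 TPM (adjusted p = 0.0355). In RNA processing and decay, 1 of 19 rose and 1 fell. Angel2, a relative of deadenylases, rose from 19.0 ± 0.488 to 27.1 ± 0.409 TPM (adjusted p = 0.00934), and Mterf2, a relative of Mterf3, fell from 16 ± 3.60 to 9.19 ± 1.04 TPM (0.0315). In rRNA modification and ribosome assembly, 1 of 22 rose and 1 fell. Rbfa, an assembly factor of the small subunit, rose from 8.73 ± 1.59 to 13.2 ± 0.998 TPM (0.046) on chromosome 18, whose genes were lower as a whole. The call of Rbfa was lost without any 1 of the 6 libraries (0.0554 to 0.151). Rcc1l, which acts in ribosome assembly, fell from 35.2 ± 4.12 to 21.6 ± 0.337 TPM (0.00808), and was the only one of the 9 called without each of the 6 libraries in turn (0.0137 to 0.0448).

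Among 10 tested further genes of translation, 1 fell and 0 rose (limma), where 18.8% of all tested genes were called. At an unadjusted p under 0.05, 1 was higher and 3 lower, next to 33.4% of all tested genes. Gatc, a subunit of the amidotransferase that makes glutaminyl-tRNA, fell from 19.3 ± 1.38 to 13.3 ± 0.174 TPM (limma adjusted p = 0.0147). Among 15 tested further genes of tRNA modification, 1 rose and 2 fell (20% called, next to 18.8% of all tested genes). Thg1l, which adds a guanosine to the histidine tRNA, rose from 13.7 ± 1.5 to 19.0 ± 0.775 TPM (0.0353). Trmt2b, a methyltransferase of mitochondrial RNAs, fell from 11.4 ± 1.5 to 6.86 ± 0.380 TPM (0.0173), on a stretch of the X chromosome whose neighbouring genes were lower by 0.58. After position centring the difference of Trmt2b was -0.07 (0.748). Nsun2, a cytosine methyltransferase of cytosolic and mitochondrial tRNAs, fell from 131 ± 11 to 103 ± 3.87 TPM (0.0447). Of the 18 alternatives, Rcc1l passed under 18, Angel2 under 14, Gatc under 13, Mterf2 and Trmt2b under 12 each, and Thg1l under 11. Slc25a33 and Rbfa passed under 9 each and Nsun2 under 7. Neighbouring genes also shifted the way of the call for Gatc (-0.28), Angel2 (0.20), Rcc1l (-0.19), Thg1l (0.16) and Slc25a33 (-0.06). They went the other way for Rbfa (-0.34), Mterf2 (0.16) and Nsun2 (0.10). Position centring called 5 of the 83 genes. Of the 83 genes, 15 were called without WT replicate 2, 4 without WT replicate 1, and 1 or 2 without any 1 MU library. Of all 14209 tested genes, these fits called 3391, 1430, and 1071 to 1203 in turn.

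The 13 mRNAs that these factors serve took 11.2%, 8.48% and 12.3% of TPM in the WT libraries and 15.2%, 14.9% and 13.8% in the MU libraries. Because TPM has a fixed total, this share lowers the values of all nuclear genes in MU alike. Rescaling without the mtDNA-encoded genes moved the median difference of the 39 genes from -0.04 to 0.02, and the calls from 1 higher and 4 lower to 2 higher and 1 lower. For the calls it lost, the difference went from -0.51 to -0.45 for Trmt10c (limma adjusted p = 0.0515) and from -0.46 to -0.40 for Gtpbp3 (0.0683). For Tsfm it went from -0.31 to -0.24 (0.0719). Under median-of-ratios scaling Trmt10c was also at -0.45 but was called (0.0279), while Gtpbp3 and Tsfm were not (0.0677 and 0.0845). The part of the mtDNA share in these lost calls was not tested.

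**Figure D5:**
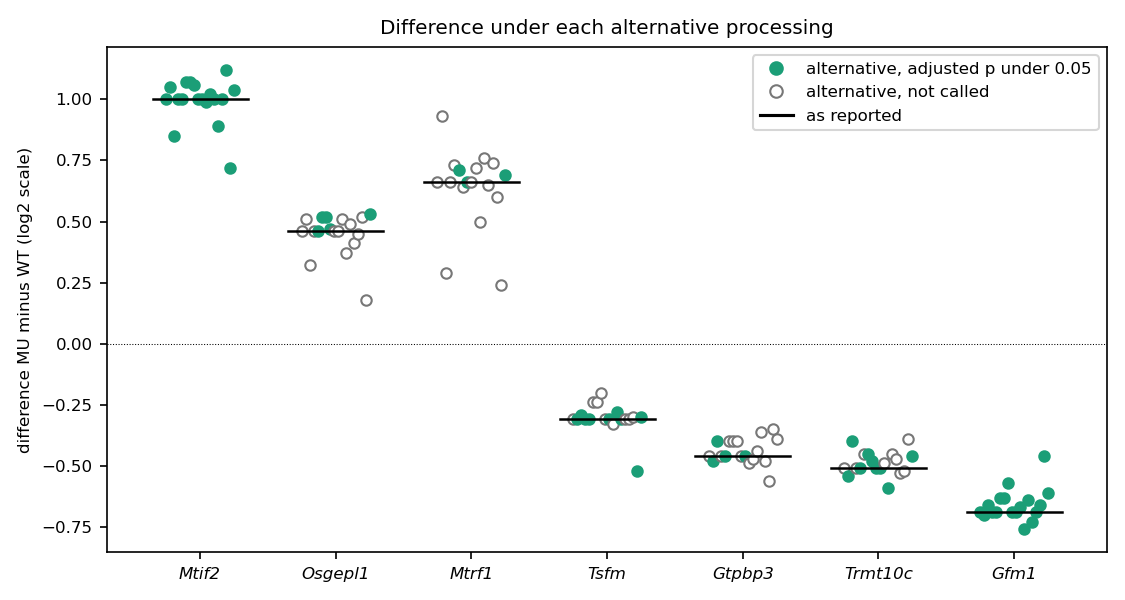
Difference between MU and WT on the log2 scale under each of the alternative processings, for 7 genes, with filled points where the adjusted p was under 0.05, open points where it was not, and a line at the reported value. Mtif2 and Gfm1 are filled throughout, and the other genes have both filled and open points on the same side of 0.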

How the data were processed

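Stranded poly(A) libraries were made, per the labels' protocols. The submitters' processing notes list mm10 as the build. The tools of the authors named there are HISAT2 2.05.0, featureCounts 1.5.0-p3, FastQC 0.11.4 and DESeq2 1.20.0. Roles and settings are not stated. The authors deposited log2 values per gene and library, which by their sums (999912.1 to 1000150.0) are log2(TPM + 1). The authors also deposited mean TPM per group, log2 fold changes and p-values.

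Here log2(TPM + 1) was tested with limma 3.58.1 in R 4.3.3 (two-sided, intensity trend, no covariate) for 14209 genes with at least 1 TPM in at least 3 of 6 libraries. Benjamini-Hochberg adjustment ran over all of them, and genes under 0.05 were called. Differences understate the change of low genes. The fit was tested on simulated data. TPM allows neither a count test nor a counting interval. No label ties the replicates to separate cultures, so p-values may reflect technical spread alone.

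The members, lists and pairs were chosen with earlier results of these data known. Values in every library are given for each called member, the 3 next members by adjusted p in each functional group and their partners, with Tfb2m, Lrpprc and Tars2 added after their values were seen. In each further list, up to 2 higher and 2 lower called genes with the smallest adjusted p are named. Positions come from GENCODE M21 (GRCm38, the assembly of mm10), and GC content and length from the longest transcript there.

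The 18 alternatives comprised a replicate block, 2 other pseudocounts (0.1 and 5), testing every gene, a minimum of 5 TPM, 3 rescalings (mtDNA-encoded genes removed, median of ratios, quantile), limma fitted robustly or with no trend, omission of each library, a loess correction for GC content and length (span 0.3), and position centring. The last subtracts from MU the median difference of up to 20 protein-coding neighbours on each side, relative to all tested genes.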

Additional observations from a re-analysis of the deposited data

How the results depend on the processing

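As reported, 1 of the 40 genes was called higher and 4 lower. With mtDNA-encoded genes removed from the total, 2 were higher and 1 lower. Under median-of-ratios scaling 3 were higher and 2 lower, and quantile normalization also gave 3 and 2. A minimum of 5 TPM gave 2 higher calls, limma without trend 2, and the GC and length correction 4. Testing with no filter gave 2 lower calls, and position centring 2. Leaving out 1 library gave 1 to 3 higher and 1 to 5 lower calls, and 1071 to 3391 calls over all tested genes (2667 as reported). Alternatives for the further genes and the pairs were chosen after seeing the data. Of the further genes (9 as reported), 4 were called with no filter, 5 by position centring, 15 under the GC and length correction and 1 to 15 without 1 library. Pairs without overlap numbered 4 to 7 without 1 library. Hsd17b10 turned to 0.24 when centred by position (limma adjusted p = 0.513). Replicates that share a number are not known to be paired. The correlations of their deviations were 0.0495, 0.0154 and -0.0744. With a replicate block, 1 of the 40 genes was called higher, 1 lower, 1 further gene and 1093 genes in all. Omitting a library or adding a block leaves fewer residual degrees of freedom, and otherwise the cause was not tested. Depth is unknown, so no limit for low genes such as Ppargc1a was set.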
